A study of Chlorocebus sabaeus with 4 samples.

Results

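Transporter genes that carry sugars, amino acids, lactate and related monocarboxylates, and fatty acids across membranes were followed in the corpus luteum, the progesterone-secreting gland that forms from the ovulated follicle. Members were genes of the solute carrier (SLC) families SLC1, SLC2, SLC3, SLC5, SLC7, SLC16, SLC27, SLC36, SLC38 and SLC43. Those that the platform annotation used here names alone on a probe set were taken, which gave 75 of 19775 genes. By known substrate, 15 carry sugars, 37 amino acids, 4 monocarboxylates and 6 fatty acids. The other 13 belong to the same families but carry another solute or none that was assigned here. The samples came from 2 adult female vervet monkeys (Chlorocebus sabaeus), both 16 years old. Monkey 1031 was the calorie restriction arm and monkey 1030 the ad libitum arm, with samples numbered 1 and 2 from each. According to the treatment description, every animal was its own control for a change in weight. The labels do not say which sample was taken first, so a change within an animal is sample 2 minus sample 1. An arm is therefore 1 animal, and differences between arms cannot be told apart from differences between these 2 individuals.

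Solute carriers set which fuels and building blocks reach a cell. SLC2 proteins let sugars pass down their gradient, and SLC5 proteins use the sodium gradient to pull sugars and other small solutes in. Amino acid uptake is shared among the sodium-driven SLC1 and SLC38 families, the proton-driven SLC36 family and exchangers in which an SLC7 light chain is held at the membrane by an SLC3 heavy chain. Several SLC16 proteins move lactate, pyruvate and ketone bodies with protons, and SLC27 proteins bring in fatty acids and activate them to coenzyme A esters. The luteal cell builds progesterone from cholesterol, is densely supplied with capillaries and has a high demand for fuel.

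Each sample was measured on 1 array, and the values are log2 signals per probe set as the authors processed them, so a difference of 1 is 2-fold. Where several probe sets name a gene, the brightest on average stands for it, and signals of different genes are not compared with each other. Of the 75 members, 36 lay at or above a mean of 5.26, the median over all genes, and 39 lay below it. The members nearest to this level were SLC27A3 (5.31) above it and SLC2A1 (5.23) below it. SLC1A3 and SLC27A3 reached it only with their highest sample included, which in both was the ad libitum animal's sample 2. Median signal over all probe sets was 3.96 to 4.00 in every array. Sample 2 of the ad libitum animal was the most distant array, since 912 to 1031 of 9888 genes were 2-fold from each other sample, against 122 to 333 among the other 3. Markers of luteal steroid-making cells were set beside the tissue label. All 9 measured of the 11 listed were above the level filter. Their mean log2 signal was 10.5 in sample 2 and 9.70 in sample 1 of the calorie restriction animal. In the ad libitum animal it was 7.70 in sample 2 and 11.4 in sample 1. The filter uses the mean over the 4 arrays, so it does not check the label for a single array. In the ad libitum animal's sample 2, CYP19A1 of this list was at 4.41, and the mean of theca markers was the highest of all samples, at 10.5. This whole-tissue RNA does not separate fewer cells of a type from less RNA per cell.

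Most transporters kept a narrow range. Of 75 members, 65 (86.7%) spanned less than 2-fold over the 4 samples, against 90.0% of all genes. Among the 36 above the level filter it was 28 (77.8%), against 84.4% of all genes above it. The ad libitum animal's sample 2 was the highest of the 4 samples in 28 members and the lowest in 25, together 70.7%, against 63.6% of all genes. Above the level filter these shares were close, at 72.2% of members and 71.2% of all genes. The 12 members with the widest ranges were led by the fatty acid transporter SLC27A2, the cystine carrier SLC7A11, the fructose carrier SLC2A5 and the nucleobase carrier SLC43A3.

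**Figure D1:**
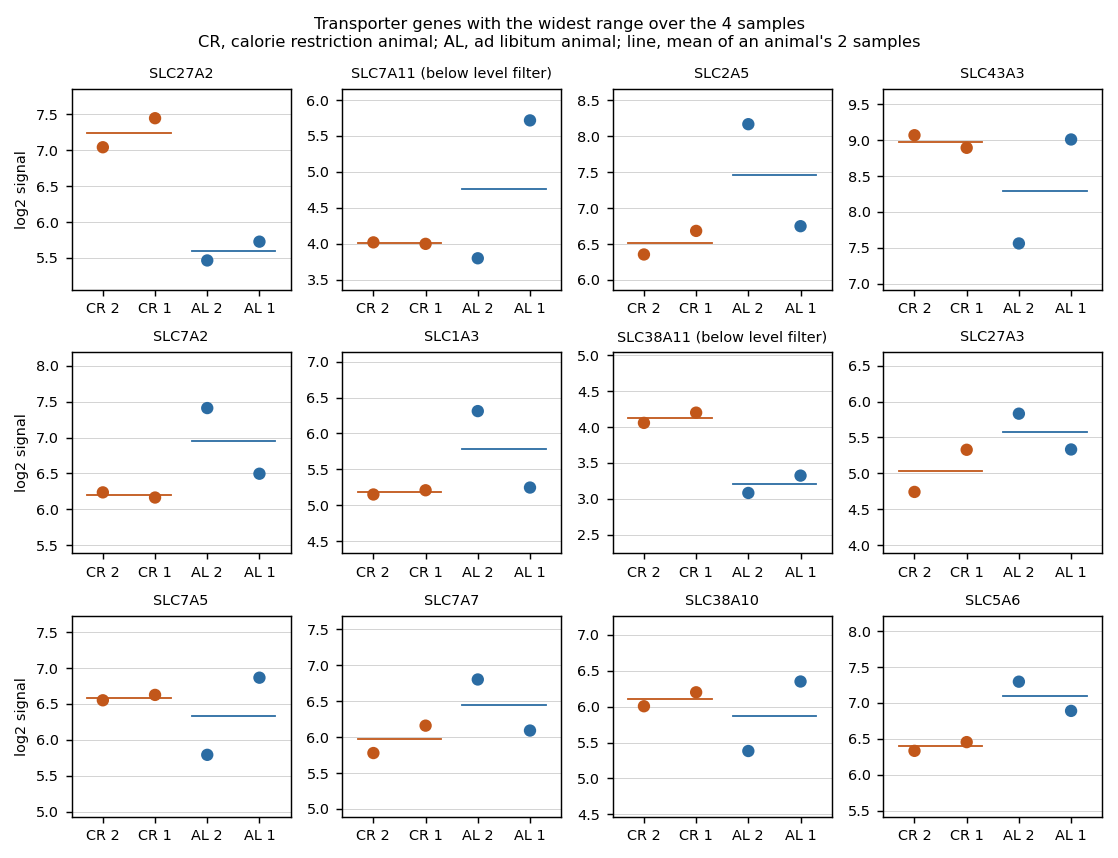
Log2 signal of the 12 transporter genes with the widest range over the 4 samples, 1 panel per gene and 1 point per array, with a line at the mean of an animal's 2 samples; every panel spans the same number of log2 units. SLC27A2 lay at 7.04 and 7.45 in the calorie restriction animal, against 5.47 and 5.73 in the ad libitum animal, while SLC2A5, SLC43A3, SLC7A5 and SLC7A11 had 1 ad libitum sample apart from the other 3.

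The first comparison was between diet arms. SLC27A2 differed most among the members. It codes for a fatty acid transport protein that also activates very long chain fatty acids and is best known from liver and kidney. Its calorie restriction samples 1 and 2 read 7.45 and 7.04 on the log2 scale, against 5.73 and 5.47 in ad libitum samples 1 and 2. Both calorie restriction samples were above both ad libitum samples, and the mean was 3.13-fold higher (log2 difference 1.65, SE 0.22). The second probe set of the gene, which lay below the level filter, had 4.70 and 5.15 in the calorie restriction samples, against 4.01 and 3.64 in the ad libitum samples, a difference of 1.10 in the same direction. SLC27A2 was the only member above the level filter to be 2-fold higher with no overlap of samples, which 1.81% of all 9888 genes were, and no member was 2-fold lower in that way, which 1.27% of all genes were. Endothelial markers also lay higher in both calorie restriction samples, with a mean log2 signal of 7.96 and 7.63 over 12 measured of 12 listed, against 7.45 and 6.41 in the ad libitum samples, and so did red blood cell markers, at 5.93 and 6.24 over 6 measured of 8, against 5.57 and 5.29, although 4 of the 6 were below the level filter. The mean of smooth muscle and pericyte markers was lower in both calorie restriction samples, at 8.37 and 8.71, against 8.98 and 9.04. Of the 10 measured of 10 listed, 6 lay below both ad libitum samples and 2 above, RGS5 (1.31) and PDGFRB (0.38). The mean of theca markers was lower too, at 9.04 and 7.80, against 9.17 and 10.5. The part of these cells in the differences between arms was not tested. Leaving out any 1 of the 4 arrays kept the difference of SLC27A2 between 1.45 and 1.85.

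No transporter passed the test across all genes. In limma, a linear model with moderated variances, 0 of 36 members and 0 of 9888 genes (0%) had a Benjamini-Hochberg adjusted p under 0.05 for the difference between arms, and SLC27A2 had an adjusted p of 0.50. At an unadjusted p under 0.05 there were 3 of 36 members, namely SLC27A2, SLC5A6 and SLC2A8, and 522 of 9888 genes. The spread behind this test is that between 2 samples of an animal and not between animals. It was widest in the ad libitum animal, and without that animal's sample 1 the fit called 5 members and 474 genes. Those members were SLC27A2 (1.78), SLC43A3 (1.42), SLC1A3 (-1.13), SLC7A2 (-1.21) and SLC2A5 (-1.65). In that setting the ad libitum arm is its sample 2 alone, so that all of the residual spread comes from the calorie restriction animal's 2 samples. SLC1A3 reached the level filter only with the ad libitum animal's sample 2 included, so its place in the list rests on that sample. Over all genes that setting called 4.79%. Without any other 1 array, 0 members passed.

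Smaller differences between arms were of both signs in every class with members above the level filter. Samples of the arms did not overlap in 20 of 36 members (55.6%), 10 higher and 10 lower in the calorie restriction animal, whereas 35.3% of all genes had no overlap. Those 20 were 5 of 5 sugar, 8 of 20 amino acid, 3 of 5 fatty acid and 4 of 6 other carriers. Among the lower ones, SLC1A3 and SLC27A3 passed the level filter only with the ad libitum animal's highest sample included. The difference was under 0.50 on the log2 scale in 28 of the 36. Over all members of a class, whatever their level, the median difference was 0.009 for sugar, -0.022 for amino acid, 0.089 for monocarboxylate and -0.097 for fatty acid carriers, against 0.003 for all genes.

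Among sugar carriers, SLC2A8, which resides on membranes inside the cell, had 6.53 and 6.63 in samples 1 and 2 of the calorie restriction animal, against 6.05 and 6.10 in those of the ad libitum animal (0.51 higher). SLC2A6, of lysosomal membranes, was 0.38 higher with 5.99 and 6.06, against 5.98 and 5.31, and without the ad libitum animal's sample 2 it was 0.05 higher. SLC2A11 was 0.29 higher. SLC2A5, the fructose carrier, was 0.94 lower, with 6.68 and 6.35 against 6.75 and 8.17, and that gap rests on the ad libitum animal's sample 2, since without it the difference was -0.23. Over all 4 of its probe sets the mean differed by -0.35, and its brightest probe set outside the less specific designs by 0.10. SLC5A2, the sodium-driven glucose carrier of the kidney tubule, differed by -0.11. The widely expressed glucose carrier SLC2A1 lay just below the level filter, with 4.89 and 5.05 in the calorie restriction samples, against 5.70 and 5.29 in the ad libitum samples. SLC2A1 was therefore lower in both calorie restriction samples, by 0.52 on average, but it was not tested, and its other probe set had a difference of 0.01 at a mean of 2.83. SLC2A4, the insulin-responsive carrier of muscle and fat, had a signal of 3.18 to 3.31 in all 4 samples, and SLC5A1, the intestinal glucose carrier, had 4.93 to 5.31.

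Other carriers that separated the arms included SLC5A6, which takes up biotin and pantothenate. It had 6.45 and 6.33 in samples 1 and 2 of the calorie restriction animal, against 6.89 and 7.30 in those of the ad libitum animal (-0.70, SE 0.21, limma adjusted p = 0.86). SLC7A2, a carrier of arginine and other cationic amino acids, had 6.16 and 6.24, against 6.50 and 7.41 (-0.75). Without the ad libitum animal's sample 2 this was -0.30, and the other 2 probe sets of SLC7A2, both below the level filter, differed by 0.23 and 0.23, the opposite sign. SLC38A6, of the sodium-coupled family, had 6.96 and 6.80, against 7.18 and 7.56 (-0.49). In these 3 genes both calorie restriction samples lay below both ad libitum samples. In the opposite direction, SLC43A2 and SLC7A8, which carry large neutral amino acids, were each 0.36 higher. A second probe set of SLC43A2, also above the level filter, overlapped between arms and differed by 0.06. Also, SLC38A2, a glutamine and alanine carrier that responds to amino acid supply, was 0.30 higher, or 0.11 without the ad libitum animal's sample 2. SLC38A2 had 12.02 and 11.84 in the calorie restriction samples, against 11.81 and 11.44 in the ad libitum samples, and its other 2 probe sets differed by 0.31 and 0.28. The urate carrier SLC2A9 was 0.27 higher and SLC38A12, with no assigned substrate, 0.28 higher. SLC5A3, the myo-inositol carrier, was 0.25 lower and SLC36A1, a proton-driven carrier of lysosomes, was 0.22 lower. The other probe sets of SLC2A9 and SLC36A1, both below the level filter, had the opposite sign (-0.18 and 0.23). Below the level filter, SLC38A11 had 4.20 and 4.06 in calorie restriction, against 3.32 and 3.08 in ad libitum samples. Its difference of 0.93 was the second largest upward one of all 75 members.

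**Figure D2:**
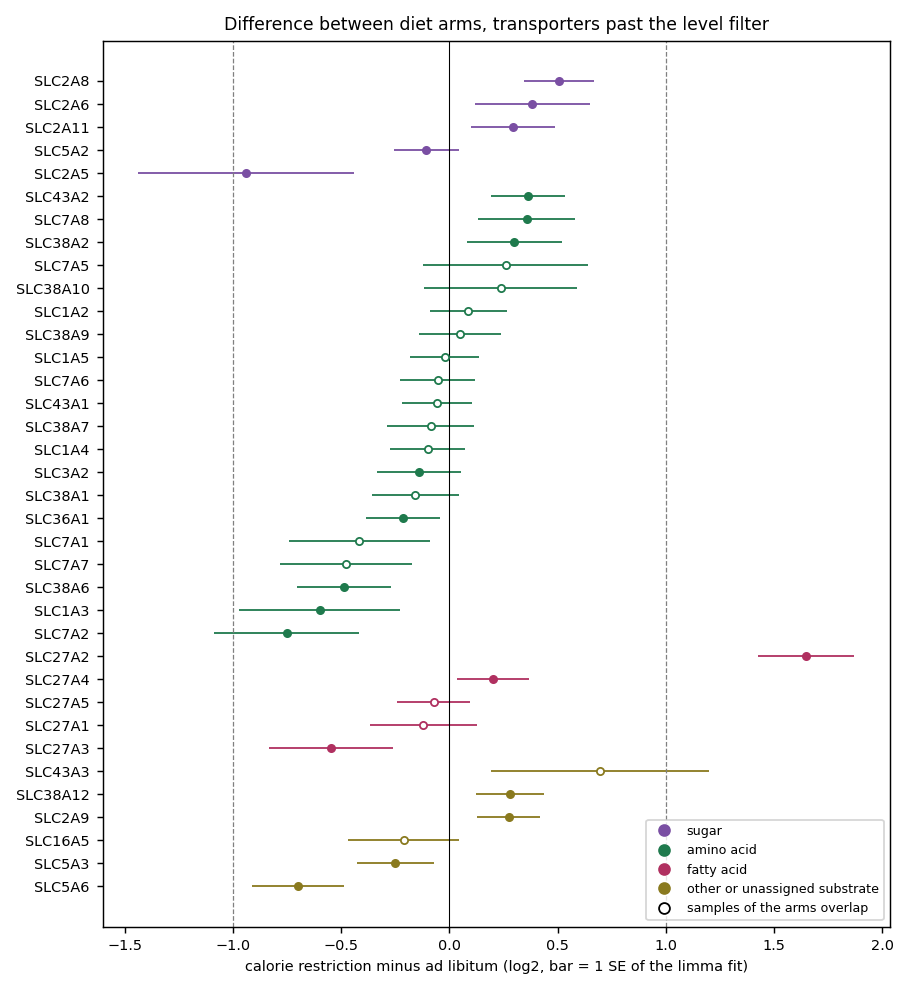
Calorie restriction minus ad libitum log2 difference of the 36 transporters above the level filter, by substrate class, with a bar of 1 SE from the limma fit; open points are genes whose samples overlap between arms, and dashed lines mark 2-fold. SLC27A2 is the only gene beyond a dashed line, at 1.65, and SLC2A5, at -0.94, has a wide bar.

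Within each animal, sample 2 was compared with sample 1. There is 1 array per sample, so these differences have no replicate and no test, and a gene is counted where it differs by 2-fold or more. In the calorie restriction animal, no member was 2-fold apart in either direction, whatever its level (0 of 36 above the level filter), where 0.496% of all 9888 genes were 2-fold higher and 0.738% lower. The median absolute change was 0.12 over all 75 members, against 0.16 over all genes. The largest change above the level filter was in SLC27A3, with 4.74 in sample 2, against 5.33 in sample 1 (-0.59), the only one of the 36 past 1.5-fold. SLC16A5 followed, with 5.98 in sample 2, against 5.49 in sample 1 (0.49), and its second probe set above the level filter differed by 0.29. SLC27A2 differed by -0.40, with its second probe set at 0.45, so its probe sets disagree within this animal. SLC7A7 differed by -0.38 and SLC2A5 by -0.33. SLC2A11 (0.31), SLC7A8 (0.29) and SLC27A5 (0.24) were the largest upward changes after SLC16A5 above the level filter. SLC7A5 (-0.07), SLC3A2 (-0.01), SLC1A5 (-0.01), SLC38A1 (0.09) and SLC7A11 (0.02) differed by less than 0.10. Class medians were 0.043 for sugar, -0.059 for amino acid, 0.018 for monocarboxylate and -0.20 for fatty acid carriers. The median over all genes was 0.003.

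In the ad libitum animal, carriers were both higher and lower in sample 2. Above the level filter, 2 of 36 members were higher, which 2.67% of all 9888 genes were, and 2 of 36 were lower, which 6.58% of all genes were. The higher ones were SLC2A5 and SLC1A3 and the lower ones SLC43A3 and SLC7A5. SLC1A3 reached the level filter only with this animal's sample 2 included, so its place in the count rests on that sample. Over all 75 members the median change was 0.060, with 41 positive and 33 negative, against a median of 0.017 over all genes. The median absolute change was 0.26 over all members, against 0.23 over all genes. Above the level filter the order was reversed, with 0.26 over the 36 members, against 0.31 over all 9888 genes.

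SLC2A5, at 6.35 and 6.68 in samples 2 and 1 of the calorie restriction animal, was 8.17 in sample 2 of the ad libitum animal, against 6.75 in its sample 1 (1.42, or 2.68-fold). Its other 3 probe sets lay below the level filter and differed by -0.01, 0.11 and 0.59 in the ad libitum animal, and the mean of all 4 probe sets differed by 0.53, which is under 2-fold. SLC1A3, a glutamate carrier best known from glia, was 6.31 in sample 2, against 5.25 in sample 1 (1.06), and its other probe set, with a signal near 2.1, did not show this (-0.10). SLC7A2 was next, 0.91 higher, with its other 2 probe sets at -0.13 and -0.32. SLC7A7, which pairs with SLC3A2 to release cationic amino acids from cells and is known from kidney, intestine and macrophages, was 6.80 in sample 2, against 6.09 in sample 1 (0.71). In all 4 genes the ad libitum animal's sample 2 was the highest of the 4 arrays. Macrophage markers were recorded beside these genes. The mean log2 signal of the 11 measured of 12 listed was 7.84 in sample 2, against 7.34 in sample 1, and lay at 7.37 and 7.62 in samples 2 and 1 of the calorie restriction animal. CHIT1 carried much of this: over the other 10, a list chosen after the values were seen, the mean was 7.71 and 7.78 in samples 2 and 1 of the calorie restriction animal, and 7.47 and 7.29 in those of the ad libitum animal, whose sample 2 was then not the highest. In the ad libitum animal 3 (AIF1, FCER1G and CHIT1) were 2-fold higher and CD163 was 2-fold lower in sample 2, and only MSR1 was below the level filter. Oocyte markers, 7 measured of 8, averaged 5.57 in sample 2, against 4.11 in sample 1, although 4 of the 7 were below the level filter. ZAR1 and ZP4 passed it only through sample 2, with 8.12 and 8.30 there and 4.13 to 4.68 in every other array. FIGLA, below the filter, differed by 1.85, while GDF9, ZP2, DAZL and BMP15 differed by 0.59, 0.44, 0.21 and -0.21. Theca markers, 5 measured of 5, averaged 10.5 in sample 2, against 9.17 in sample 1. Smooth muscle and pericyte markers were at 9.04 and 8.98 and T and NK cell markers at 4.70 and 4.46. The part of these cell types in the transporter signals was not tested.

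Among the lower genes, SLC43A3 moves purine nucleobases. It was 9.07 and 8.89 in samples 2 and 1 of the calorie restriction animal, and 7.56 in sample 2 of the ad libitum animal, against 9.01 in its sample 1 (-1.45), so only the ad libitum animal's sample 2 was low. Its second probe set, also above the level filter, was 4.78 in sample 2, against 5.85 in sample 1 (-1.07). SLC7A5, the light chain that imports leucine and other large neutral amino acids and has 1 probe set, was 5.79 in sample 2, against 6.87 in sample 1 (-1.07). Its heavy chain SLC3A2, which anchors several SLC7 light chains, differed by -0.23 (7.87 against 8.11). SLC38A10 differed by -0.97, although its other 6 probe sets, all below the level filter, ranged from -0.33 to 0.52. SLC7A1, the common arginine and lysine importer, had 7.28 and 7.22 in samples 2 and 1 of the calorie restriction animal, and 7.24 in sample 2 of the ad libitum animal, against 8.10 in its sample 1 (-0.85), so here the ad libitum animal's sample 1 stood high. This was not shared by the other 4 probe sets of SLC7A1, all below the level filter, which differed by -0.24 to 0.40, and over the mean of all 5 the difference was -0.16. SLC2A6 differed by -0.67. SLC2A3, the glucose carrier of neurons, lay below the level filter, with 4.28 in sample 2, against 4.92 in sample 1 (-0.64).

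SLC7A11, the cystine and glutamate exchanger that feeds glutathione synthesis, had the largest change of all 75 members, but it lay below the level filter. It was 4.02 and 4.00 in samples 2 and 1 of the calorie restriction animal, and 3.80 in sample 2 of the ad libitum animal, against 5.72 in its sample 1 (-1.92). The ad libitum animal's sample 1 was thus the only one apart, and the other 2 probe sets of SLC7A11, with signals of about 3.25 and 2.13, differed by 0.41 and 0.05. The glutathione synthesis gene GCLC had 8.17 in sample 2, against 10.59 in sample 1 (-2.42). Markers of luteal steroid-making cells were 2-fold lower in sample 2 of the ad libitum animal in 9 of 9 measured, and endothelial markers in 6 of 12, with a mean signal of 6.41 in sample 2, against 7.45 in sample 1. The part of either cell type in the lower transporter signals was not tested.

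Several carriers of amino acids differed little. SLC1A5, a main glutamine importer of growing cells, was 5.77 and 5.78 in samples 2 and 1 of the calorie restriction animal, and 5.88 in the ad libitum animal's sample 2, against 5.72 in its sample 1. SLC1A4, a related carrier of alanine, serine and cysteine, differed by 0.18 and SLC1A2, a glutamate carrier, by 0.27 in the ad libitum animal. A second probe set of SLC1A4, also above the level filter, went the other way (-0.14). Within the SLC38 family, SLC38A1 differed by -0.23, SLC38A2 by -0.37, SLC38A7 by -0.33 and SLC38A6 by 0.38. SLC38A9, a lysosomal arginine sensor upstream of mTORC1, differed by -0.06. SLC36A1 differed by 0.17, SLC43A1 by 0.12, SLC43A2 by -0.15, SLC7A6 by -0.01 and SLC7A8 by -0.30. The second probe set of SLC43A2, also above the level filter, had the opposite sign (0.26). Over the 11 SLC38 members, SLC38A12 included, the median was -0.19, over the 7 SLC1 members 0.18 and over the 8 light chains -0.15, against 0.017 for all genes.

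Fatty acid carriers had the highest class median in the ad libitum animal, 0.29 over 6 genes, with 4 positive and 2 negative. Monocarboxylate carriers had a median of 0.21, with all 4 positive. The median was 0.049 for other carriers, 0.023 for sugar and -0.007 for amino acid carriers. SLC27A1, the form of muscle and fat, was 6.57 in sample 2, against 6.01 in sample 1 (0.57). SLC27A3 differed by 0.50, SLC27A5, a bile acid activating enzyme of liver, by 0.08, SLC27A4 by -0.22 and SLC27A2 by -0.26. SLC27A6, below the level filter, differed by 0.74, and SLC27A3 reached that filter only with the ad libitum animal's sample 2 included. The monocarboxylate carriers analysed here were SLC16A7, SLC16A8, SLC5A8 and SLC5A12. All 4 lay below the level filter, with changes of 0.09 to 0.38. SLC16A1 and SLC16A3 were not among the genes analysed, so these 4 cover only part of the lactate carriers. SLC16A7, a carrier with high affinity for pyruvate and lactate, had 4.10 in sample 2, against 3.71 in sample 1. The neighbouring family member SLC16A5 was 6.15 in sample 2, against 5.74 in sample 1, and its second probe set above the level filter went the other way (-0.24).

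Members below the level filter were untested in both animals. The 17 amino acid carriers among them differed by -0.41 to 0.26 in the calorie restriction animal and by -1.92 to 0.59 in the ad libitum animal. The 10 sugar carriers differed by -0.29 to 0.15 in the calorie restriction animal and by -0.64 to 0.40 in the ad libitum animal. The 7 other carriers differed by -0.68 to 0.28 in the calorie restriction animal and by -0.60 to 0.32 in the ad libitum animal. Only SLC7A11 among these 39 members was 2-fold apart within an animal.

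**Figure D3:**
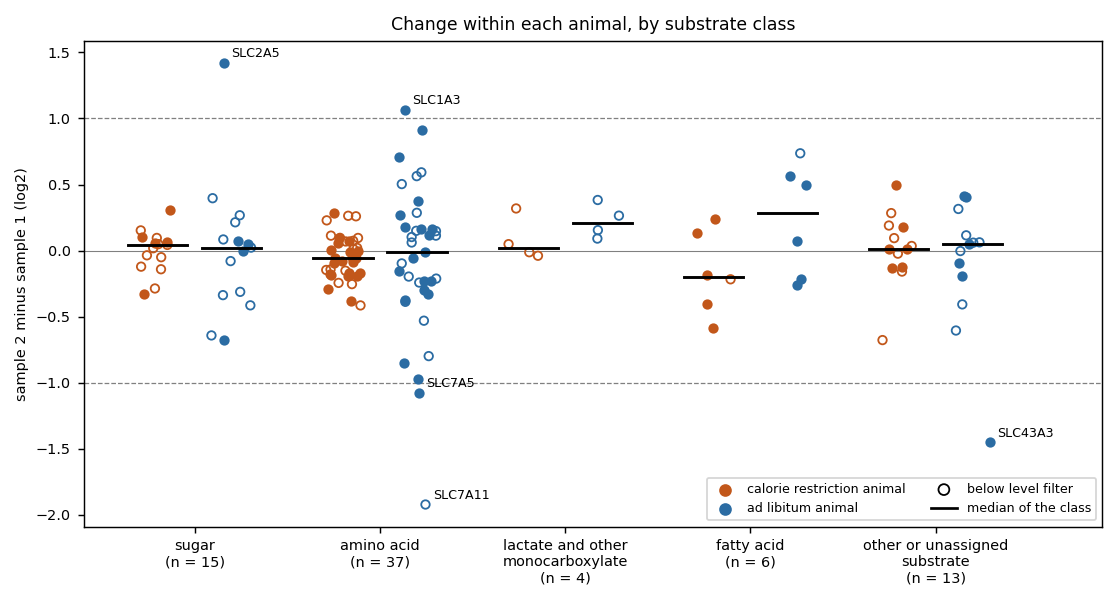
Sample 2 minus sample 1 log2 change of each of the 75 transporters, by substrate class and animal, with open points for genes below the level filter, a black line at the median of a class and dashed lines at 2-fold. No point of the calorie restriction animal passes a dashed line, whereas the ad libitum points reach 1.42 (SLC2A5) and -1.92 (SLC7A11).

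When the changes of both animals were fitted together with the animal as a block, 0 of 36 members and 0 of 9888 genes (0%) passed an adjusted p of 0.05 in limma for a common change, and again 0 of 36 members and 0 of 9888 genes (0%) for opposed changes. At an unadjusted p under 0.05 the common fit had 0 members and 180 genes, and the opposed fit had 3 members, SLC2A5, SLC7A7 and SLC27A3, and 738 genes. These 3 were the members above the level filter that differed by 0.3 or more on the log2 scale in opposite directions in the 2 animals. SLC27A3 reached that filter only with the ad libitum animal's sample 2 included, so its place among the 3 rests on that sample. Each fit left 1 residual degree of freedom. Across the 75 members, which share arrays and are not independent replicates, the 2 animals' changes had a Pearson r of -0.18, against -0.19 across all genes.

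**Figure D4:**
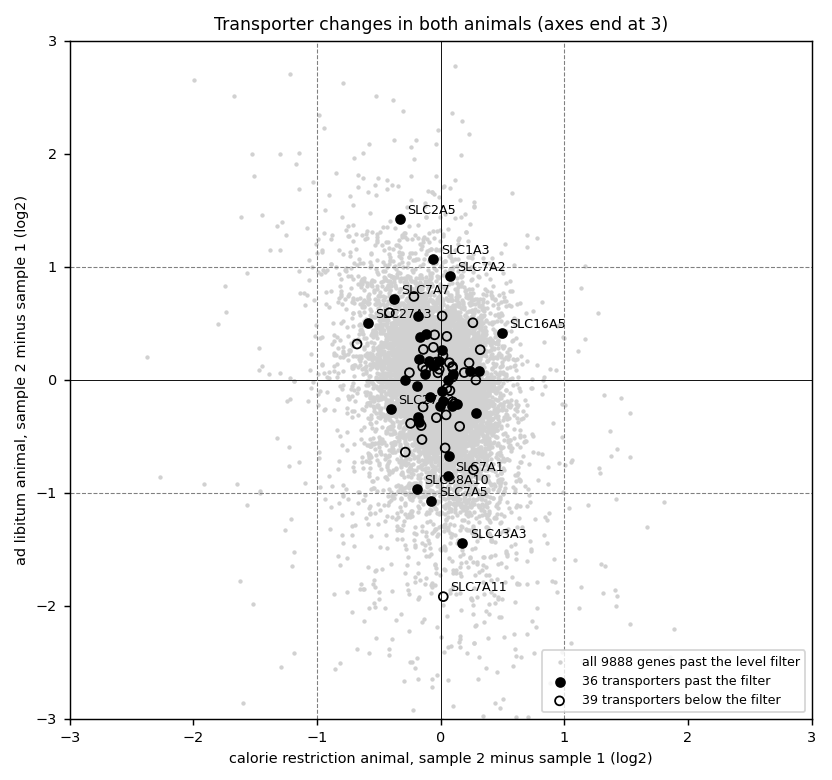
Log2 change in the calorie restriction animal (horizontal) against that in the ad libitum animal (vertical), with transporters in black and all 9888 genes above the level filter in grey; axes end at 3, dashed lines mark 2-fold and some grey points fall outside. Transporters spread along the vertical axis, and none passes 2-fold on the horizontal axis.

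Genes that act next to these carriers were counted from a list of 46, of which 43 were measured and 39 lay above the level filter. In the calorie restriction animal none of the 39 was 2-fold lower and 1 was higher, the acyl-CoA synthetase ACSL4 (1.05), where 0.738% of all genes were lower and 0.496% higher. In the ad libitum animal, 6 of the 39 were 2-fold lower in sample 2, where 6.58% of all genes were, and 4 were 2-fold higher, where 2.67% were. The list was chosen with earlier results of these data known, so these counts are no test of the listed genes. Of the higher genes, FABP4 reached the level filter only with that sample included. The lower ones were hexokinase HK2 (-2.66), which traps glucose after its entry, GCLC, ACSL4 (-2.33), the branched-chain aminotransferase BCAT1 (-1.47), the mitochondrial carnitine palmitoyltransferase CPT2 (-1.08) and the asparagine synthetase ASNS (-1.03). The higher ones were the fatty acid binding proteins FABP5 (1.81) and FABP4 (1.31), RRAGD (1.66), a GTPase that links amino acid supply to mTORC1, and the fatty acid receptor CD36 (1.19). BSG, the chaperone of lactate carriers, differed by 0.01 in the calorie restriction animal and by -0.45 in the ad libitum animal. LDHA, which makes lactate from pyruvate, differed by 0.49 in the calorie restriction animal and by -0.72 in the ad libitum animal.

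Between arms, none of the 39 listed genes was 2-fold higher without overlap, where 1.81% of all genes were, and 2 were lower, where 1.27% were. FABP4, a fatty acid binding protein of adipocytes, macrophages and capillary endothelium, had 4.70 and 4.64 in samples 1 and 2 of the calorie restriction animal, against 6.22 and 7.53 in those of the ad libitum animal (-2.20). FABP4 reached the level filter only with its highest sample, since the other 3 averaged 5.19, so its place among the 39 rests on the ad libitum animal. FABP5, of the same family, had 8.95 and 8.28, against 9.22 and 11.03 (-1.51). Without the ad libitum animal's sample 2 the difference of FABP5 was -0.60, under 2-fold. Both lay below in all calorie restriction samples, the opposite direction from SLC27A2. Neither passed the limma test across all genes, with adjusted p of 0.71 for FABP4 and 0.88 for FABP5.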

How the data were processed

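The authors deposited 1 log2 signal for each probe set and sample, made with Affymetrix Power Tools and RMA per the submitters' processing notes. The version of either was not given in the sources used here. Single probes and their detection were not analysed here, and the number of arrays limits precision. The spread behind the p-values between arms is that between an animal's 2 samples, which the labels do not say are separate collections. The fits of common and opposed changes have another residual, given with their results. Of 54675 probe sets, 62 controls were left out. Gene names are the platform's human ones, and only the 41091 probe sets with 1 symbol were used, so 2 probe sets shared by SLC2A3 and its near-identical relative were set aside. Probes that mismatch vervet sequence can lower a signal. Of the members, 73 matched a symbol in the RefSeq vervet annotation mChlSab1.0.hap1. Some SLC16 members were not analysed here, and no sequences are shown.

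Genes at or above the median of gene means (9888) entered limma 3.58.1 in R 4.3.3 (lmFit, eBayes with a trend, Benjamini-Hochberg adjustment over all of them). The fit between arms had no block and 2 residual degrees of freedom. On simulated data for that comparison it recovered 11 of 67 planted log2 differences of 1, 58 of 67 of 2 and 64 of 66 of 3. There were 7 false calls over 9888 genes. The simulation gave a gene the same spread in both animals and drew the arrays independently. In the data, 915 genes were 2-fold apart between the ad libitum samples and 122 between the calorie restriction samples, so that recovery may not hold for them. Nothing in the labels says that same-numbered samples of the 2 animals belong together. The members, classes, partner genes and markers were chosen with earlier results of these data known, and SLC38A12 was put among unassigned carriers after its values were seen. Members above the level filter may be named; others are given as ranges, apart from a fixed set and those 2-fold apart, and SLC38A11, SLC27A6 and SLC16A8, SLC5A8 and SLC5A12 were named after their values were seen. Alternatives were other level filters and fold thresholds, the mean of all probe sets, leaving out less specific probe sets, cyclic loess, no trend, a block on sample number and leaving out each array.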

Additional observations from a re-analysis of the deposited data

Results flagged for a closer look

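In 3 members above the level filter, sample 2 differed from sample 1 in opposite directions in the 2 animals, each with a log2 difference of 0.3 or more between the samples of both. The size limit was chosen after the values were seen. The calorie restriction animal's change minus the ad libitum animal's was -1.75 for SLC2A5 (-0.33 and 1.42), -1.09 for SLC27A3 (-0.59 and 0.50) and -1.09 for SLC7A7 (-0.38 and 0.71). In the limma test of that difference the adjusted p was 0.66 for each of the 3. SLC27A3 reached the level filter only with the ad libitum animal's sample 2 included, so its place among the 3 rests on that sample.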

How the results depend on the processing

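Counts of members were recomputed under each alternative. For the difference between arms at an adjusted p under 0.05, no member was called under any alternative but 1. With sample number as a replicate block the count was 0 members and 0 genes, and nothing in the labels ties the numbers of the 2 animals, whose changes correlated at -0.27 over 9888 genes. With crossed numbers as the block, added after seeing the data, it was 0 and 0. Leaving out 1 array gave 0 to 5 members, the 5 without the ad libitum animal's sample 1. Members 2-fold higher without overlap, 1 as reported, were 1 to 2 when an array was left out, and those 2-fold lower, 0 as reported, were 0 to 3 (SLC2A5 without the calorie restriction animal's sample 1, and SLC1A3, SLC2A5 and SLC7A2 without the ad libitum animal's sample 1). Over all genes, that last setting had 6.13% higher and 3.35% lower, against 1.81% and 1.27% as reported. SLC1A3 reached the level filter only with the ad libitum animal's sample 2 included, so its place among the lower ones rests on that sample.

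With a level filter at the 75th percentile fewer genes are tested, among them 9 members. The count higher between arms was then 0, where 2.12% of all genes were higher. In the ad libitum animal 0 members were higher and 1 lower, where 2.27% and 8.78% of all genes were. With the mean of all probe sets, 0 were higher in the ad libitum animal. Without probe sets of less specific design, 0 of 31 members were higher between arms, where 1.63% of all genes were. That setting had 1 higher and 0 lower in the ad libitum animal, where 2.68% and 5.94% of all genes were. All probe sets of SLC43A3 and SLC7A5 are of the less specific design. SLC27A2 kept a difference of 1.10 there, below the level filter, while SLC2A5 came to 0.10 between arms, the opposite sign, and to 0.11 in the ad libitum animal, where SLC7A1 came to 0.40, also the opposite sign. At 1.5-fold, 4 were higher and 5 lower in the ad libitum animal and 1 lower in the calorie restriction animal, where 9.54%, 15.2% and 3.93% of all genes were. At 3-fold, 0 were higher and 0 lower in the ad libitum animal, where 0.627% and 2.53% of all genes were. Cyclic loess and a fit with no trend gave the reported counts. Fits of the common and opposed changes without 1 array have no residual degree of freedom and were not run.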
